A study of Mus musculus with 6 samples.

Results

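The genes described here encode the proton pump of the lysosome and the enzymes, membrane proteins and transcription factors that work with it. They were chosen by name and function, not by their values, although earlier results of these data were known. They are 42 genes out of the 38887 Ensembl identifiers in the count table. All 42 were among the 12259 genes with enough counts to be tested. The study sequenced RNA of neutrophils that had been selected with Ly6G beads from mouse bone marrow. It compared naive mice, which carried no tumor, with mice 1 week and 3 weeks after LL2 cells, a luciferase-expressing line of Lewis lung carcinoma, had been injected intravenously and had formed tumors in the lung. Each of the 3 groups had 2 libraries, which the labels number as replicate mice. The paper names more samples for each group than were analysed here. The methods name C57BL/6 mice, but sex, age and strain are not tied to single libraries. LL2 is 1 cell line, so that differences between tumor lines were not measured.

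Lysosomes break down proteins, sugars and lipids in an acidic lumen. The acid is made by the V-ATPase, a rotary pump whose cytosolic V1 part splits ATP and whose membrane-embedded V0 part passes protons into the lumen. Cathepsins and other hydrolases need this acid to mature and to work, and in neutrophils related compartments also supply enzymes that activate the serine proteases of the granules. TFEB and TFE3, transcription factors of the MiT/TFE family, bind an E-box that recurs in promoters of lysosomal genes.

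That E-box was looked for in RefSeq promoter windows of GRCm38.p6, which reach from 250 bases before a gene's start to 50 bases after it and existed for 34 of the 42 genes. The letters TCACGTGA, which read the same on both strands, occurred in 6 of the 34 genes (17.65%) and in 1.12% of the 27025 genes with a window. The shorter TCACGTG, searched on both strands, occurred in 11 (32.35%) and 4.29%, and CACGTG, which lies within both, in 12 (35.29%) and 8.09%. TCACGTGA with a further G before it and C after it was in 0 of the 34 genes and in 0.37% of all. The holders of TCACGTGA were Atp6v0d1, Atp6v0e, Atp6v1a, Ctsa, Ctsd and Mcoln1. Sequences are shown for the 4 holders with a match that lies before the RefSeq start. They include genes with different courses: Atp6v1a and Ctsa rose at 3 weeks against both groups, Ctsd rose only against one-week LL2 mice and Mcoln1 did not pass the test in any comparison. The letters are on the strand of the gene, 5′ to 3′, with the 8-base match in capitals.
Atp6v1a, chr16:44139338-44139437, minus strand: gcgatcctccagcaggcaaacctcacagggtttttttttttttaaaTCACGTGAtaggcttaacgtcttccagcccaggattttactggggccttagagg
Ctsa, chr2:164833714-164833772, plus strand: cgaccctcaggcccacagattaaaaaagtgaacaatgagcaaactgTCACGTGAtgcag
Ctsd, chr7:142387873-142387972, minus strand: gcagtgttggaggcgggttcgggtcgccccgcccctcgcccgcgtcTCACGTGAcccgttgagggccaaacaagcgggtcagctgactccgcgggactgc
Mcoln1, chr8:3500427-3500518, plus strand: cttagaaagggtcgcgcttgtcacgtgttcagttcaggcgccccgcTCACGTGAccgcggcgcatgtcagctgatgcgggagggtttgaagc
The match begins 132 bases before the RefSeq start in Atp6v1a, 13 in Ctsa, 99 in Ctsd and 46 in Mcoln1. Ctsa holds a second match that lies after this start. In the GENCODE annotation of GRCm38 these genes start further upstream. By that annotation all 4 printed matches lie inside the gene. A match describes letters only, and binding was not measured here.

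The libraries held between 11994158 and 14127919 counts, and values are given as CPM, a gene's counts per 1000000 counts of the library, whose total was first multiplied by edgeR's TMM factor (0.913 to 1.07). In these units 3 counts, taken as the limit of detection, were between 0.200 and 0.245 CPM, which covers counting error only. Groups were compared by edgeR's quasi-likelihood F test in 1 model of all 6 libraries. Log2 fold changes are given ± their standard errors, and a gene was called changed, here "rose" or "fell", when its Benjamini-Hochberg adjusted p-value over all tested genes was under 0.05. With 2 libraries a group these p-values measure the spread between these libraries. The selection marker itself, Ly6g, was close to the limit of detection in every library (0.491 to 2.13 CPM), while S100a8, S100a9, Csf3r and Cxcr2, other genes of neutrophils, were abundant. Levels of different genes are compared only per kilobase of annotated exon.

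The 42 genes together made up 0.730% to 0.769% of the counts in a library, and 39 of them averaged at least 10 CPM. Per kilobase, naive neutrophils had most RNA of Psap (541 CPM per kilobase), the precursor of the saposins that help to degrade sphingolipids. Atp6v1f (462), Ctsd (380) and Atp6v1g1 (350) followed. The naive libraries of Psap (500 and 583) and Atp6v1f (422 and 503) overlapped, as did those of Ctsd (374 and 386) and Atp6v1g1 (320 and 380), whereas those of Atp6v1f lay above those of Ctsd. At the other end were Gaa (1.05), acid alpha-glucosidase, and Mcoln1 (0.276), a calcium channel of the lysosomal membrane.

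**Figure D1:**
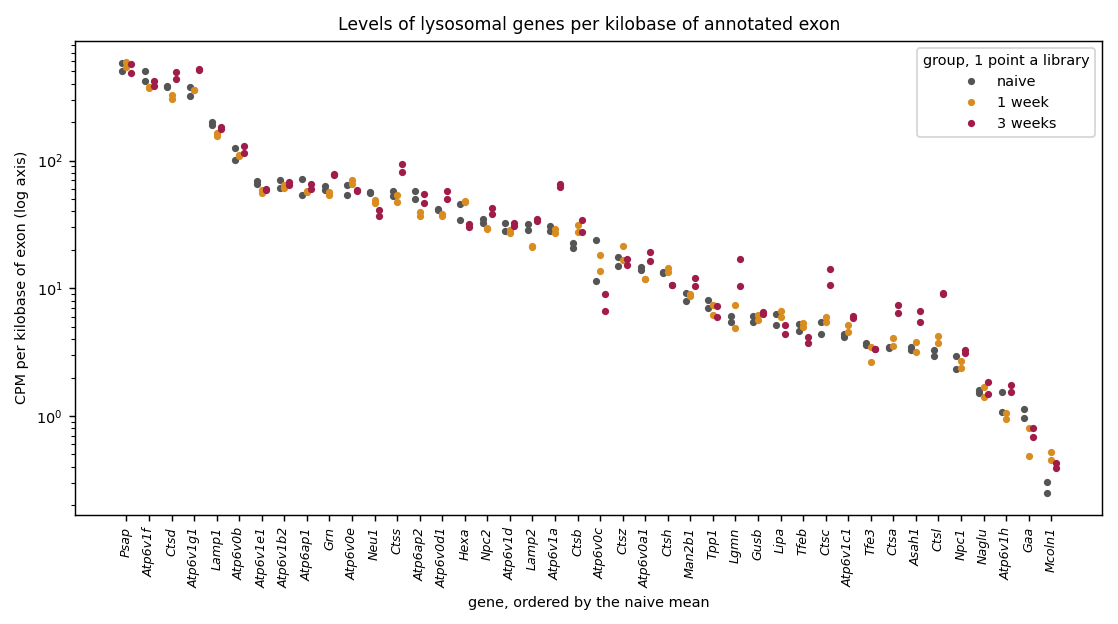
CPM per kilobase of annotated exon on a log axis for the 42 genes, ordered by their mean in naive mice, with 1 point for each library and a color for each group. The genes span from 541 CPM per kilobase (Psap) to 0.276 (Mcoln1) in naive mice, and the points from three-week LL2 mice stand above the others for Atp6v1a, Ctsl, Ctsc and Ctsa.

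At 1 week few of these genes differed from naive mice. With edgeR 0 of the 42 rose, where 4.23% of all tested genes did, and 2 fell, Lamp2 and Atp6ap2, where 3.76% of all did. At an unadjusted p under 0.05 there were 3 higher and 7 lower, and DESeq2 called 1 higher and 3 lower. The median log2 fold change of the 42 genes was -0.07 relative to that of all tested genes. Both calls were lost when naive replicate 1, one-week replicate 1 or one-week replicate 2 was left out.

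Against the same naive libraries, 13 of the 42 genes rose in neutrophils from three-week LL2 mice (31.0%), where 12.0% of all tested genes did, and 2 fell (4.76%), where 9.42% did. Among genes with a mean of at least 10 CPM, 13 of the 39 rose (33.3%) beside a background of 18.5%. The median log2 fold change was 0.09 relative to all genes, and 27 of the 42 genes were not called. Both comparisons with naive mice share their control libraries. Without naive replicate 1, the number that rose was 7. With scaling by library size only, where the median log2 fold change of all genes was -0.11 and not 0.03, 8 rose and 7 fell.

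Most calls came when the 2 tumor groups were set directly against each other, 3 weeks against 1 week. In it 16 genes rose (38.1%), where 12.9% of all tested genes did, and 3 fell (7.14%), where 9.57% did. Of genes with at least 10 CPM, 16 of 39 (41.0%) rose beside 21.2% of all such genes, and the median of the 42 was 0.20 relative to all genes. For 10 of the 16 the log2 fold change of one-week against naive mice was below 0, as it was for 24 of all 42. The one-week libraries enter both comparisons, so these signs are not independent of the calls. The number that rose was 8 without one-week replicate 1. It was 11, with 7 that fell, under scaling by library size only, where the median of all genes was -0.22 and not -0.02. In total 23 genes were called in at least 1 comparison and 19 in none. At 3 weeks 10 rose against both other groups, 6 against one-week mice only and 3 against naive mice only. No change exceeded 5-fold.

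**Figure D2:**
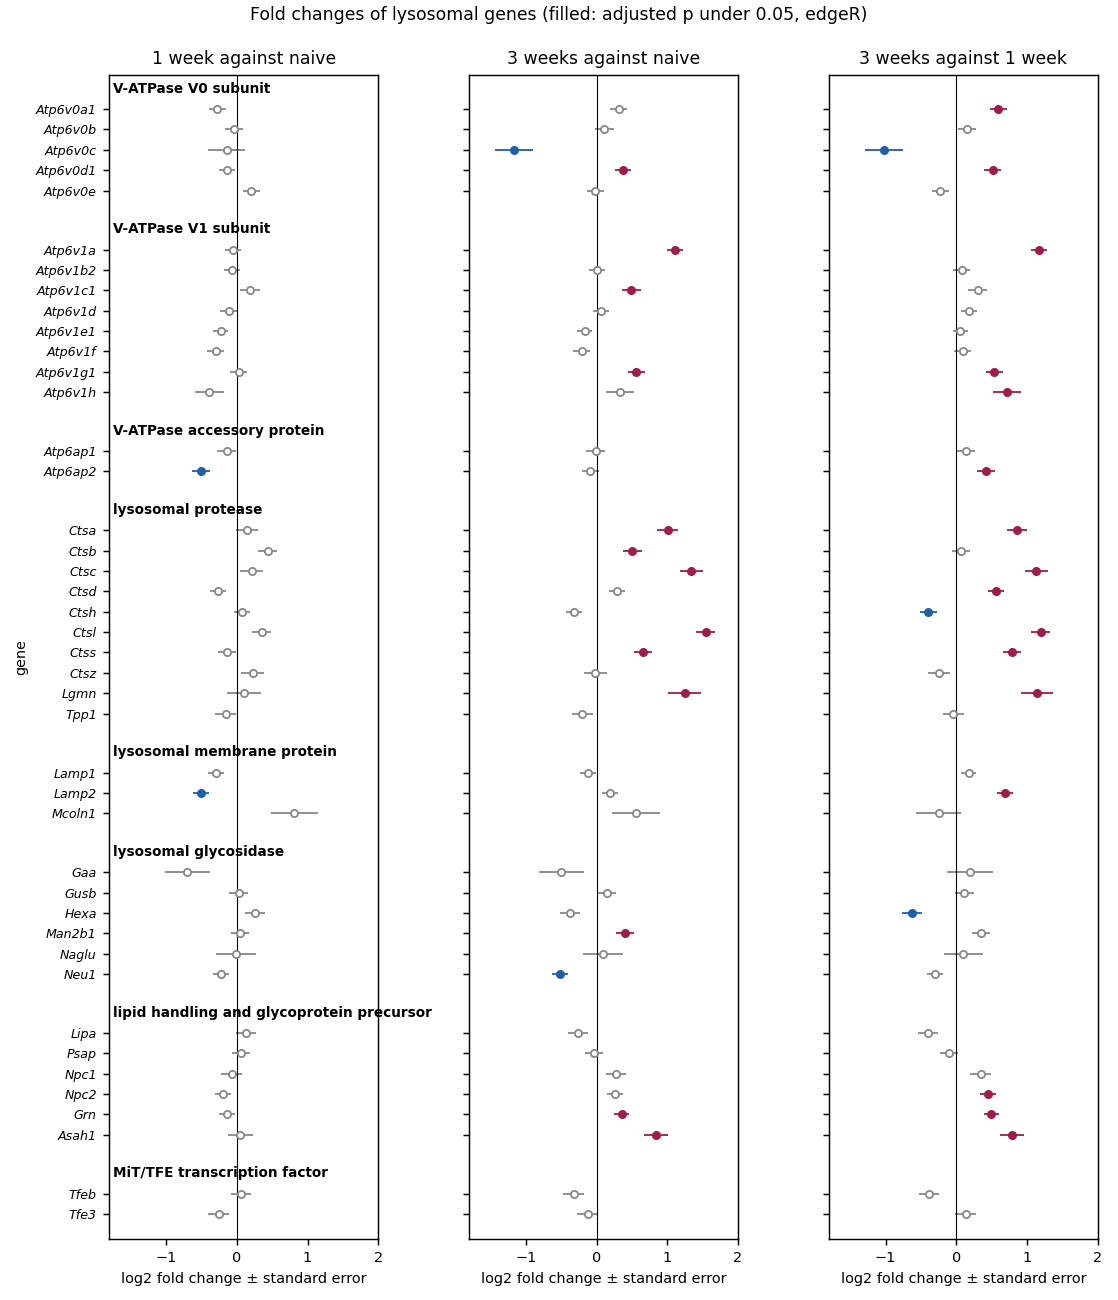
Log2 fold change with its standard error for each of the 42 genes, grouped by role, in the comparisons of one-week with naive, three-week with naive and three-week with one-week mice. Filled points passed an adjusted p of 0.05 in edgeR (red higher, blue lower): 2 in the first panel, 15 in the second and 19 in the third.

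**Figure D3:**
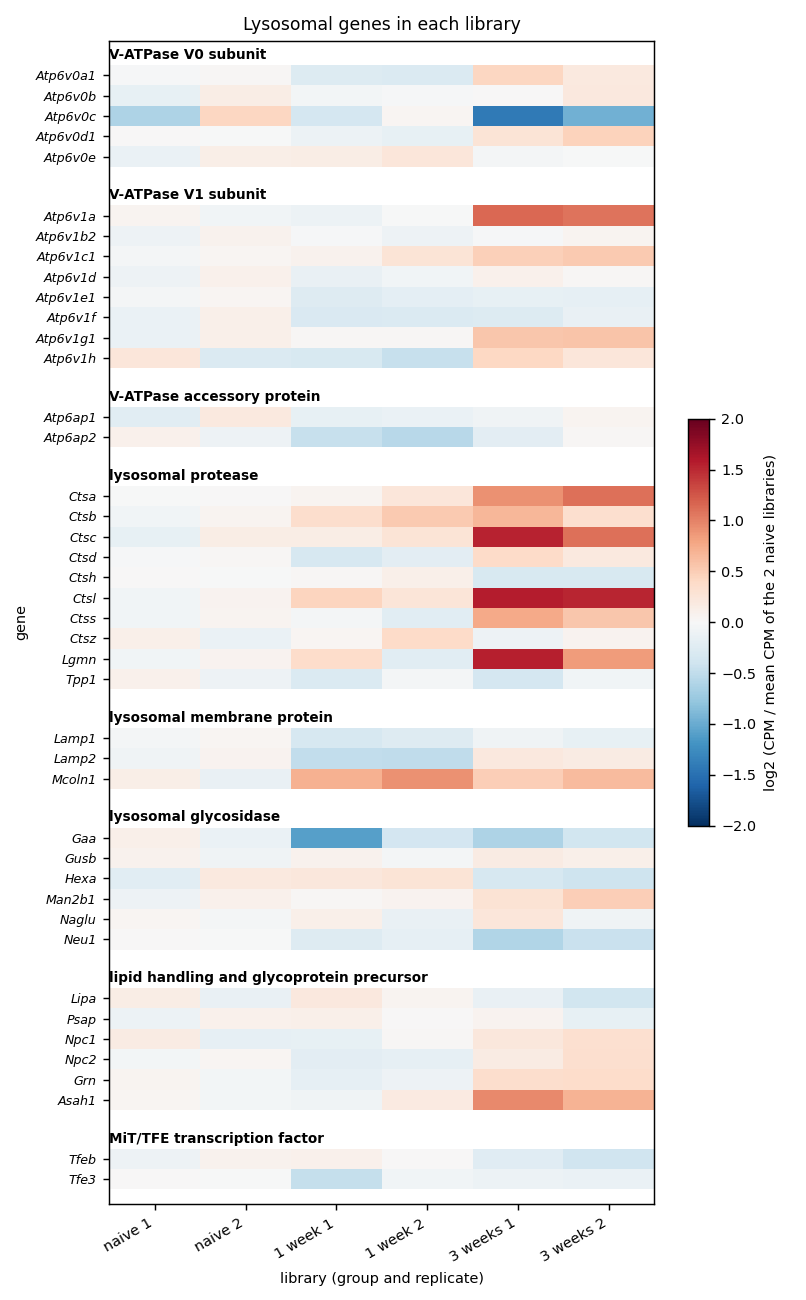
Log2 ratio of each library's CPM to the mean of the 2 naive libraries for the 42 genes (color scale from -2 to 2), in columns by library and rows by role. The strongest red is in both three-week libraries for Ctsl, Ctsc, Atp6v1a and Ctsa, and the strongest blue for Atp6v0c.

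In the V1 part of the pump, 3 of 8 subunit genes rose at 3 weeks against naive mice and 3 against one-week mice, and 0 fell in either comparison. The shares of all tested genes to set beside this and the role groups below were 12.0% and 12.9% higher and 9.42% and 9.57% lower. Atp6v1a encodes the catalytic A subunit, which splits ATP (ENSMUSG00000052459, GRCm38 chromosome 16, 44085402 to 44139705). It measured 185 and 170 CPM in naive mice, 164 and 177 at 1 week and 394 and 375 at 3 weeks. Both three-week libraries were about as far above the naive as above the one-week ones, with log2 fold changes of 1.11 ± 0.11 (adjusted p = 2.03e-05) and 1.17 ± 0.11 (adjusted p = 1.37e-05). Atp6v1b2, the gene of the B subunit that alternates with A in the same ring, measured 325 and 371 CPM in naive mice, 343 and 324 at 1 week and 342 and 361 at 3 weeks. Its groups overlapped throughout, with 0.01 ± 0.11 (adjusted p = 0.954) at 3 weeks against naive mice.

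Atp6v1g1, a subunit of the pump's outer stalk, measured 363 and 431 CPM in naive mice, 404 and 405 at 1 week and 585 and 589 at 3 weeks. It rose against both, by 0.57 ± 0.12 (adjusted p = 0.00372) and 0.54 ± 0.12 (adjusted p = 0.00471). Atp6v1c1, whose product links the stalks when the pump assembles, measured 23.3 and 24.4, 25.3 and 29.0, and 33.0 and 34.1 CPM in the same order of groups. It rose only against naive mice (0.49, adjusted p = 0.0208, lost under 6 of 14 alternatives), since the change from 1 week did not pass the test (0.31, adjusted p = 0.123). Atp6v1h, a regulatory subunit, measured 15.0 and 10.4, 10.2 and 9.24, and 16.9 and 15.1 CPM. The higher naive library lay just below both three-week ones, and only the difference from 1 week was called (0.71 ± 0.20, adjusted p = 0.0192). Atp6v1f, the most abundant V1 gene per kilobase in naive mice, measured 448 and 535, 397 and 403, and 405 and 445 CPM, and with Atp6v1d and Atp6v1e1 it passed no test.

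Of the 5 V0 genes, 1 rose and 1 fell at 3 weeks against naive mice, and 2 rose and 1 fell against one-week mice. Atp6v0d1, which couples the V0 ring to the central stalk, measured 74.7 and 74.2 CPM in naive mice, 69.0 and 66.2 at 1 week and 90.4 and 103 at 3 weeks. It rose by 0.38 ± 0.12 (adjusted p = 0.0381) against naive and by 0.51 ± 0.12 (adjusted p = 0.00735) against one-week mice, and the call against naive mice was lost under 10 of 14 alternatives, DESeq2 among them. Atp6v0a1 encodes an a subunit, part of the proton path, and measured 91.5 and 95.5, 77.6 and 76.9, and 126 and 107 CPM. Its one-week libraries lay below and its three-week libraries above the naive ones, and only the difference between the weeks was called (0.59 ± 0.12, adjusted p = 0.00351). Atp6v0b, the most abundant V0 gene per kilobase as counted, measured 206 and 256, 222 and 227, and 233 and 267 CPM, and like Atp6v0e it passed no test. This ranking takes Atp6v0c without the reads of its near-identical pseudogene, described next.

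Atp6v0c, the gene of the main proteolipid of the ring, needs care. It measured 38.9 and 80.3 CPM in naive mice, 46.6 and 61.2 at 1 week and 22.4 and 30.5 at 3 weeks, and fell at 3 weeks by 1.17 ± 0.27 (adjusted p = 0.00752) and 1.03 ± 0.27 (adjusted p = 0.0146) on the log2 scale against naive and one-week mice. A processed pseudogene, Atp6v0c-ps2, matches its transcript over 465 bases at 99.78% identity and held between 734 and 1089 CPM, so that the division of reads between them is uncertain. Their sum was 1128 and 1127 CPM in naive mice, 781 and 839 at 1 week and 969 and 1107 at 3 weeks. Tested as 1 feature, an alternative added after the values were seen, the sum was -0.12 (adjusted p = 0.500) at 3 weeks against naive mice, -0.48 (adjusted p = 0.0220) at 1 week and 0.36 (adjusted p = 0.0366) between the weeks. The fall of Atp6v0c therefore did not hold for the sum, which was lower at 1 week and higher again at 3 weeks.

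Among the accessory proteins, Atp6ap2, the (pro)renin receptor that helps to assemble the pump, measured 151 and 131 CPM in naive mice, 103 and 96.5 at 1 week and 122 and 144 at 3 weeks. It fell at 1 week by 0.50 ± 0.13 (adjusted p = 0.0280) on the log2 scale and rose between the weeks (0.42 ± 0.13, adjusted p = 0.0300), which left the three-week libraries overlapping the naive ones. Atp6ap1, whose naive mean per kilobase was the higher of the pair (63.0 and 53.9) with overlapping libraries, measured 164 and 218, 171 and 174, and 180 and 199 CPM and passed no test. Genes of tissue-restricted isoforms were listed at 0 counts in all 6 libraries for Atp6v0a4, Atp6v0e2, Atp6v1b1 and Atp6v1e2. Tcirg1, which encodes another a subunit and is best known from osteoclasts, measured 145 and 166, 190 and 208, and 144 and 160 CPM. It was lower at 3 weeks than at 1 week (-0.39 ± 0.12, adjusted p = 0.0323), the direction opposite to Atp6v0a1.

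Of 10 genes of lysosomal proteases, 6 rose and 0 fell at 3 weeks against naive mice, and 6 rose and 1 fell against one-week mice, while 0 were called at 1 week. Of all tested genes, 12.0% rose against naive and 12.9% against one-week mice, and 18.5% and 21.2% of those with at least 10 CPM. Ctsl, the endopeptidase cathepsin L (ENSMUSG00000021477, chromosome 13, 64359337 to 64370890), measured 19.2 and 21.2 CPM in naive mice, 27.5 and 24.1 at 1 week and 59.7 and 58.0 at 3 weeks. Its groups did not overlap in any comparison, and the log2 fold change at 3 weeks was 1.54 ± 0.13 (adjusted p = 5.72e-06) against naive and 1.19 ± 0.13 (adjusted p = 3.99e-05) against one-week mice. The value of 1 week against naive, 0.35, did not pass the test (adjusted p = 0.135). Ctsc encodes cathepsin C, the dipeptidyl peptidase that activates the neutrophil serine proteases (ENSMUSG00000030560, chromosome 7, 88278085 to 88310888). It measured 25.3 and 31.6, 31.5 and 34.5, and 82.9 and 61.4 CPM, with 1.34 ± 0.16 (adjusted p = 9.99e-05) against naive and 1.13 ± 0.16 (adjusted p = 0.000271) against one-week mice.

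Ctsa, the serine carboxypeptidase also called protective protein (ENSMUSG00000017760, chromosome 2, 164832873 to 164841032), measured 16.0 and 16.4 CPM in naive mice, 16.8 and 19.1 at 1 week and 30.4 and 34.7 at 3 weeks. It rose by 1.01 ± 0.15 (adjusted p = 0.000384) and 0.86 ± 0.15 (adjusted p = 0.000990) on the log2 scale. Lgmn encodes legumain, an asparaginyl endopeptidase that processes other cathepsins, and measured 12.7 and 14.1, 17.3 and 11.4, and 39.4 and 24.1 CPM. Both three-week libraries were above all others but far apart, with 1.24 ± 0.24 (adjusted p = 0.00219) against naive and 1.14 ± 0.23 (adjusted p = 0.00334) against one-week mice. Ctss, cathepsin S, which stays active at neutral pH, measured 72.3 and 78.8, 73.5 and 64.4, and 127 and 111 CPM and rose by 0.66 (adjusted p = 0.00240) and 0.79 (adjusted p = 0.000623).

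Ctsd encodes the aspartic protease cathepsin D and was the most abundant protease gene per kilobase. It measured 880 and 907 CPM in naive mice, 708 and 773 at 1 week and 1163 and 1025 at 3 weeks. As with Atp6v0a1, the one-week libraries were lowest and only the rise between the weeks was called (0.56 ± 0.11, adjusted p = 0.00318). Ctsb, the cysteine protease cathepsin B, measured 126 and 137, 168 and 189, and 209 and 166 CPM. It rose at 3 weeks against naive mice (0.51 ± 0.13, adjusted p = 0.0161), but its one-week libraries were already above the naive ones (0.44, adjusted p = 0.0612) and overlapped the three-week ones. Ctsh, an aminopeptidase, went the other way, with 60.3 and 59.0, 60.7 and 64.9, and 48.0 and 47.7 CPM, and fell between the weeks by 0.39 ± 0.12 (adjusted p = 0.0292). Ctsz and Tpp1 passed no test.

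**Figure D4:**
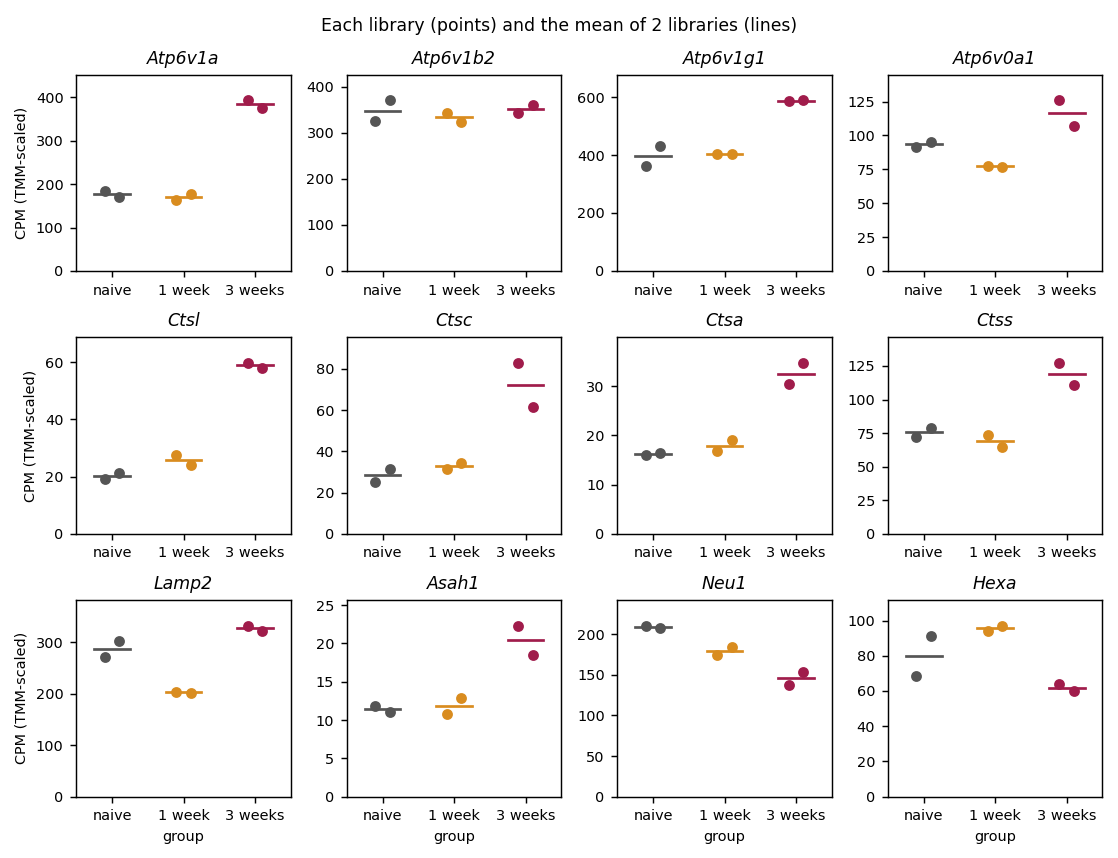
CPM in each library (points) with the mean of the 2 libraries of a group (lines) for 12 of the genes, with each axis starting at 0. Atp6v1a, Ctsl, Ctsc, Ctsa, Ctss and Asah1 are highest in both three-week libraries, Atp6v1b2 stays between 324 and 371 CPM, Lamp2 is lowest at 1 week, and Neu1 and Hexa are lowest at 3 weeks.

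Other cells of the marrow can contribute to these values. A list of 17 monocyte and macrophage markers summed to 1704 to 1762 CPM in naive, 1621 to 1690 in one-week and 1645 to 2138 in three-week libraries, and none of its markers was at or below 3 counts in all libraries. Its sum was 1.30 times higher in three-week replicate 1 than in replicate 2, and 14 of the 17 markers were higher there. Lgmn, Ctsc and Ctsb, which macrophages also express, were 1.63, 1.35 and 1.26 times higher in the same library. Other members were also higher there, among them Asah1 (1.21), Psap (1.18), Lipa (1.18), Ctss (1.14) and Ctsd (1.13). For further members that macrophages also express this ratio was 1.03 (Ctsl), 0.989 (Grn), 0.891 (Npc2), 0.886 (Ctsz) and 0.875 (Ctsa). In all, 22 of the 42 genes were higher in that library, and the median ratio of the 42 was 1.00. Without that library Lgmn was 0.86 (adjusted p = 0.0184) and Ctsc 1.12 (adjusted p = 0.000355) against naive mice, and Ctsb was 0.34 and no longer called (adjusted p = 0.151). Of 12 neutrophil markers, Cxcr2 (0.70) and Retnlg (0.44) rose and Camp (-1.04), Ltf (-0.64) and Ngp (-0.51) fell at 3 weeks against naive mice. Of 9 tested genes of the primary granule stage, 6 rose and 3 fell at 3 weeks against naive mice, and their sum was 273 to 283 CPM in naive, 287 to 350 in one-week and 383 to 503 in three-week libraries. In the same comparison 3 of 7 tested dendritic cell, 3 of 5 megakaryocyte and platelet and 1 of 8 erythroid markers fell, and 0 rose. The erythroid sum was 1328 CPM in three-week replicate 1 and 568 in replicate 2. B cell markers fell in all 9 genes, from sums of 48.0 to 59.7 in naive to 12.4 to 14.2 CPM in three-week libraries. Markers of basophils, eosinophils and mast cells summed to 38.0 to 41.9 CPM in naive, 82.2 to 92.4 in one-week and 21.5 to 30.7 in three-week libraries. Of other lists, Ncr1 of natural killer cells, Calcr and Dcstamp of osteoclasts and Krt19 and Sftpc of the epithelial list for LL2 carcinoma were at or below 3 counts in every library. Cdh1, the only tested gene of the LL2 list, rose at 3 weeks against naive mice (1.72, adjusted p = 0.0155). It measured 3.40 and 3.52 CPM in naive, 1.80 and 4.17 in one-week and 17.0 and 5.84 in three-week mice. Krt8, not tested, had 0 and 0 counts in naive, 8 and 13 in one-week and 3 and 3 in three-week libraries. In the same order Krt18 had 0 and 2, 8 and 5, and 2 and 2 counts, and Epcam 1 and 8, 3 and 0, and 0 and 1. Of the T and NK cell list, Nkg7 rose against naive mice (1.60, adjusted p = 0.0115) and Cd3d fell (-1.98, adjusted p = 9.88e-05). Cd4 and Klrb1c were not called. The list summed to 15.7 to 17.9 CPM in naive, 19.0 to 28.6 in one-week and 11.5 to 13.1 in three-week libraries. Ctsk of osteoclasts had 7 and 27 counts in naive, 3 and 32 in one-week and 27 and 138 in three-week libraries, a difference from naive mice that was not called (adjusted p = 0.0773). In bulk RNA, fewer cells of a type and less RNA in each cell cannot be told apart, and the part of other cells in these results was not tested.

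The 3 genes of membrane proteins had no call at 3 weeks against naive mice. Lamp2, a heavily glycosylated protein that lines the membrane and takes part in autophagy (ENSMUSG00000016534, chromosome X, 38401357 to 38456454), measured 271 and 302 CPM in naive mice, 203 and 202 at 1 week and 332 and 323 at 3 weeks. It fell at 1 week by 0.50 ± 0.11 (adjusted p = 0.0162) on the log2 scale and rose between the weeks by 0.69 ± 0.11 (adjusted p = 0.000631), to 0.19 above naive mice (adjusted p = 0.246). Lamp1, its more abundant relative, measured 510 and 538, 416 and 438, and 494 and 470 CPM and passed no test, with its lowest libraries also at 1 week. Mcoln1 lay between 1.88 and 3.95 CPM, and its log2 fold changes, up to 0.81 at 1 week, came with standard errors of 0.32 to 0.34 and were not called at this depth.

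Glycosidases, which cut sugars from glycoproteins and glycolipids, split in direction. Of 6 genes, 1 rose and 1 fell at 3 weeks against naive mice, and 0 rose and 1 fell between the weeks. Neu1, the sialidase (ENSMUSG00000007038, chromosome 17, 34931253 to 34935953), measured 211 and 208 CPM in naive mice, 175 and 185 at 1 week and 137 and 154 at 3 weeks. Its 3 groups did not overlap, and the difference of -0.52 ± 0.11 (adjusted p = 0.00525) at 3 weeks against naive mice was called. Hexa, the alpha subunit of beta-hexosaminidase, measured 68.7 and 91.4, 94.1 and 97.1, and 63.7 and 59.9 CPM. It fell between the weeks by 0.63 ± 0.14 (adjusted p = 0.00587), while its naive libraries were far apart and the difference from naive mice was not called (-0.37, adjusted p = 0.0772). Man2b1, alpha-mannosidase, measured 63.9 and 73.9, 69.7 and 72.5, and 84.2 and 97.2 CPM and rose against naive mice just within the threshold (0.40 ± 0.13, adjusted p = 0.0414), a call lost under 9 of 14 alternatives. Gaa, Gusb and Naglu passed no test.

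In 2 pairs of partners that work in 1 complex, the level of one gene over the other shifted at 3 weeks. The pairs were chosen after their values had been seen, so the ratios, per kilobase of exon, are given without a test. Atp6v1a over Atp6v1b2 was 0.499 and 0.402 in naive mice, 0.420 and 0.479 at 1 week and 1.01 and 0.913 at 3 weeks. Neu1 over Ctsa, whose product binds and stabilizes the sialidase, was 16.6 and 16.1, 13.2 and 12.2, and 5.72 and 5.61. In each ratio both three-week libraries lay apart from the 4 others.

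**Figure D5:**
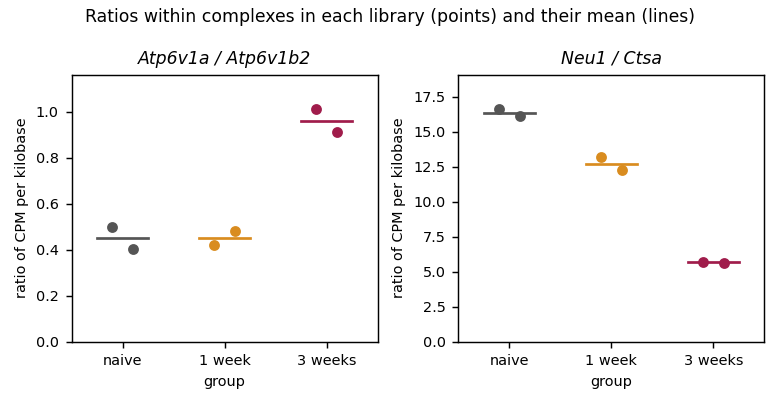
Ratio of CPM per kilobase of exon in each library (points) and the mean of a group (lines) for Atp6v1a over Atp6v1b2 and Neu1 over Ctsa. The first ratio goes from 0.451 in naive to 0.961 in three-week mice and the second from 16.3 to 5.66.

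Among 6 genes of lipid handling and glycoprotein precursors, 2 rose at 3 weeks against naive mice, 3 rose between the weeks and 0 fell. Asah1, acid ceramidase, which splits ceramide, measured 11.8 and 11.0 CPM in naive mice, 10.8 and 12.9 at 1 week and 22.3 and 18.5 at 3 weeks. It rose by 0.84 ± 0.17 (adjusted p = 0.00390) and 0.79 ± 0.17 (adjusted p = 0.00515). Grn, the precursor of the granulins, measured 218 and 204, 187 and 197, and 269 and 272 CPM, and rose by 0.36 ± 0.11 (adjusted p = 0.0331) and 0.50 ± 0.11 (adjusted p = 0.00550). Its call against naive mice was lost under 9 of 14 alternatives, including each of the 6 that left out a library. Npc2, which hands cholesterol to Npc1 for export, measured 177 and 189, 159 and 162, and 206 and 231 CPM and rose between the weeks only (0.45 ± 0.11, adjusted p = 0.0122). Psap measured 1372 and 1599, 1616 and 1485, and 1568 and 1330 CPM, and with Lipa and Npc1 it passed no test.

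Neither of the 2 transcription factor genes was called in any comparison. Tfeb, the more abundant per kilobase, measured 26.2 and 29.9 CPM in naive mice, 30.2 and 28.3 at 1 week and 23.6 and 21.2 at 3 weeks. Its three-week libraries were the lowest, yet neither -0.32 against naive (adjusted p = 0.126) nor -0.38 against one-week mice (adjusted p = 0.0681) passed the test. Tfe3 ranged from 24.4 to 34.2 CPM, with -0.13 (adjusted p = 0.607) at 3 weeks against naive mice. Tfec, a companion gene of the same family, measured 2.37 and 3.76 CPM in naive and 7.36 and 5.53 in three-week mice. It rose against naive (1.07, adjusted p = 0.0251) and one-week mice (1.01, adjusted p = 0.0297). Mitf, also of this family, was not called at 3 weeks against naive mice (-0.86, adjusted p = 0.0523). The activity of these factors is regulated by their location in the cell, which RNA does not measure. Of the 6 genes with TCACGTGA in the window, 3 rose at 3 weeks against naive mice, as did 6 of the 28 genes without it. Between the weeks the numbers were 4 and 9. Of all tested genes, 12.0% and 12.9% rose in these comparisons. The share among all genes that hold the letters was not computed, and a link between the letters and a rise was not tested. The 19 genes called in no comparison had log2 fold changes between -0.50 and 0.56 at 3 weeks against naive mice.

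Other genes of the pathway, 117 in a list of companions of which 109 were tested, gave 4 rises (3.67%) and 3 falls (2.75%) at 1 week, beside 4.23% and 3.76% of all tested genes. There were 16 (14.7%) and 7 (6.42%) at 3 weeks against naive mice, beside 12.0% and 9.42%, and 25 (22.9%) and 11 (10.1%) between the weeks, beside 12.9% and 9.57%. Of 20 further membrane proteins, 6 rose and 1 fell at 3 weeks against naive mice. Ctns, the cystine exporter, measured 8.30 and 10.3 CPM in naive mice, 6.33 and 8.04 at 1 week and 22.0 and 19.0 at 3 weeks (1.14 ± 0.19 against naive, adjusted p = 0.000920). Scarb2, the receptor that carries glucocerebrosidase to lysosomes, measured 19.6 and 17.1, 16.8 and 17.3, and 33.0 and 28.4 CPM (0.74 ± 0.15, adjusted p = 0.00337). Tpcn1, an endolysosomal cation channel, fell from 35.3 and 30.6 to 18.6 and 19.1 CPM (-0.81 ± 0.14, adjusted p = 0.00118). Of 30 tested further hydrolases, 1 rose and 1 fell in the same comparison beside 6 rises among the 10 proteases, a difference in counts that was not tested. The gene that fell was Aga, an amidase of glycoprotein breakdown (-0.75 ± 0.19, adjusted p = 0.0154).

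Of 16 genes for MiT/TFE factors and nutrient sensing at lysosomes, 3 rose and 1 fell at 1 week, and 2 rose and 3 fell at 3 weeks against naive mice. Rraga, a GTPase that recruits the kinase complex mTORC1, measured 127 and 104 CPM in naive mice, 57.2 and 43.6 at 1 week and 78.6 and 74.3 at 3 weeks. It fell at 1 week (-1.19 ± 0.15, adjusted p = 0.000716) and rose again between the weeks (0.60 ± 0.15, adjusted p = 0.0112). Mtor, the kinase, measured 5.61 and 5.32, 9.20 and 9.16, and 11.7 and 11.4 CPM and was higher than in naive mice at both times (0.75, adjusted p = 0.0331, and 1.08, adjusted p = 0.00145). Rragd, a partner of Rraga, fell from 4.74 and 4.09 to 1.55 and 1.38 CPM at 3 weeks (-1.59 ± 0.33, adjusted p = 0.00419). The sorting genes were mixed, with 2 rises and 2 falls of 16 at 3 weeks against naive mice. The rises were those of Vps41 (0.67, adjusted p = 0.0162) and Gnptg (0.58, adjusted p = 0.0496). The genes that fell were Sort1 (-0.40, adjusted p = 0.0381) and Igf2r (-0.45, adjusted p = 0.0496), receptors that bring enzymes to lysosomes.

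Autophagosome genes had most of their calls between the weeks, where 7 of 14 rose and 1 fell, beside 12.9% and 9.57% of all tested genes. Ulk1, the kinase that starts autophagy, measured 86.6 and 78.3 CPM in naive mice, 46.9 and 45.7 at 1 week and 90.7 and 94.5 at 3 weeks. It fell at 1 week (-0.83 ± 0.12, adjusted p = 0.00175) and rose between the weeks (1.00 ± 0.12, adjusted p = 7.21e-05), a course like that of Lamp2. Map1lc3a, which encodes an LC3 protein of the autophagosome membrane, measured 48.1 and 53.2, 47.0 and 55.2, and 94.7 and 86.5 CPM and rose at 3 weeks against naive mice (0.84 ± 0.13, adjusted p = 0.000520). Of the cystatins, inhibitors of cysteine cathepsins, Cst7 went from 2.45 and 1.72 CPM in naive to 6.97 and 8.30 in three-week mice (1.87 ± 0.33, adjusted p = 0.00150). Cstb went from 66.0 and 86.0 to 123 and 93.4 CPM (0.51 ± 0.16, adjusted p = 0.0330).

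Several of these genes share bases with others. Ctsb overlaps Fdft1, which held 139 to 319 counts, on the opposite strand. Ctsa overlaps Pltp, with 20 to 49 counts, beside 200 to 452 counts for Ctsa itself. Npc1 overlaps Rmc1 on the opposite strand, with 168 to 359 counts, beside 324 to 487 for Npc1 itself. Whether the counting used strand is not given in the sources used here. Transcripts of Ctsd, Ctsl, Atp6ap2 and Atp6v1f match other annotated genes, over 671, 395, 438 and 360 bases, that were not analysed here. Atp6v0c has a further such match over 465 bases.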

How the data were processed

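RNA of Ly6G-selected bone marrow cells was measured in 6 libraries, 2 in each of 3 groups taken from the labels. The deposited table holds RSEM's expected counts, 1 row for each gene, given by the authors as whole numbers and not scaled between libraries. The submitters' processing notes name Bowtie2, RSEM 1.2.31, DESeq2 and mm10, and the methods name an earlier RSEM version. The kit made total RNA libraries read from a single end, and the use of strand in counting is not given in the sources used here.

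Symbols, positions and exon lengths came from GENCODE annotation of GRCm38, which matched 37570 of 38887 identifiers. Genes were filtered with filterByExpr, scaled by TMM and compared with the quasi-likelihood test of edgeR 4.0.16 in R 4.3.3, with the group as the only factor and Benjamini-Hochberg adjustment over 12259 genes. The code was tested on simulated data in which 200 genes of any level were changed 2-fold in three-week mice. Against naive mice 62.0% of them were recovered, and 7 of 131 calls were unchanged genes. Copies were sought among annotated transcripts with minimap2 2.31, keeping matches of at least 150 bases and 95% identity. Promoter windows were RefSeq's. The members, their roles, the companion genes and the marker lists were chosen with earlier results of these data known. Every member is named, with all library values where it was called or was the most abundant of its role per kilobase. Of each companion list, up to 4 called genes per comparison were eligible to be named, those with the smallest p-values. Alternatives were DESeq2 1.42.0, its size factors, library size only, other filters, the 2 compared groups alone, a replicate block and each library left out.

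Replicates of a group had Pearson's r of 0.977 to 0.980 for log2 CPM across genes, which are not independent replicates, and differed by more than counting noise (chi-square per degree of freedom 9.04 to 12.6). The RNA of the other experiments was not analysed here. One companion gene is counted in its list but not reported here by name.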

Additional observations from a re-analysis of the deposited data

Results flagged for a closer look

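For 19 of the 42 genes the change from naive mice differed between 3 weeks and 1 week by the test of that difference, which is the direct comparison of the weeks in edgeR (adjusted p under 0.05). All libraries of naive mice drop out of this difference. The 19 genes are the 16 rises and 3 falls already given for that comparison, where 12.9% of all tested genes rose and 9.57% fell. The log2 fold change against naive mice was larger at 3 weeks by 1.19 for Ctsl, 1.17 for Atp6v1a, 1.14 for Lgmn and 1.13 for Ctsc. The differences were 0.86 for Ctsa, 0.79 for both Ctss and Asah1, 0.71 for Atp6v1h and 0.69 for Lamp2. They were 0.59 for Atp6v0a1, 0.56 for Ctsd, 0.54 for Atp6v1g1, 0.51 for Atp6v0d1, 0.50 for Grn, 0.45 for Npc2 and 0.42 for Atp6ap2. In the other direction the differences were -0.39 for Ctsh, -0.63 for Hexa and -1.03 for Atp6v0c, the last of which turned to 0.36 when its reads were summed with those of Atp6v0c-ps2.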

How the results depend on the processing

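Of 36 changes called among the 42 genes, 16 were called under every alternative, 0 at 1 week, 7 at 3 weeks against naive mice (Atp6v1a, Ctsa, Ctsc, Ctsl, Ctss, Lgmn and Asah1) and 9 between the weeks (Atp6v0a1, Atp6v1a, Ctsa, Ctsc, Ctsl, Ctss, Lamp2, Lgmn and Hexa). Settings that kept all libraries held 23 of the 36. Only Atp6v0c reversed, to 0.36 between the weeks when summed with Atp6v0c-ps2, which also left 1 gene lower at 3 weeks against naive mice. At 1 week the numbers higher and lower (0 and 2) were 1 and 3 with DESeq2, 1 and 1 with scaling by library size only, 1 and 2 without the filter on low counts or with the 2 groups alone, and 0 to 1 and 0 to 2 when a library was left out. At 3 weeks against naive mice (13 and 2) they were 10 and 1 with DESeq2, 8 and 7 with library size only, and 7 to 10 and 1 to 3 without 1 library. Between the weeks (16 and 3) library size only gave 11 and 7, and leaving out a library gave 8 to 16 and 1 to 4. Companion genes at 1 week (4 and 3) gave 0 higher with DESeq2, 5 lower without the filter, and 0 to 4 and 2 to 4 without 1 library. At 3 weeks (16 and 7) they gave 7 and 12 with library size only and 7 to 13 and 2 to 7 without 1 library, and between the weeks (25 and 11) 7 higher with library size only and 9 to 27 and 3 to 11 without 1 library. The cause of these shifts was not tested. Replicate numbers did not pair the samples (r of deviations 0.010 to 0.038), and a replicate block gave 0 and 2, 12 and 2, and 16 and 4 calls. With 2 libraries a group the lone library of a reduced group is assumed to vary like the others, and depth limits Mcoln1, Gaa and Naglu most.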
